A study of Mus musculus with 11 samples.

Results

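The S100 proteins are small EF-hand proteins, most of which bind calcium. The 10 members described here, S100a3, S100a4, S100a6, S100a8, S100a9, S100a10, S100a11, S100a13, S100a14 and S100a16, were taken as a list of gene symbols and matched through the Ensembl 96 annotation to 10 of the 55536 Ensembl genes in the count files. All 10 passed the filter on low counts, which kept 20307 genes. RNA had been sequenced from 11 libraries of dorsal skin epidermis of male CD4Cre R26-tdT mice on a C57Bl6/N background, in which Cre driven by Cd4 regulatory sequence switches on the red fluorescent protein tdTomato (tdT), so that tdT+ marks cells with present or past Cre activity and tdTneg cells carry the same alleles without the label. Each library pooled the cells of 2 mice, which were 29 weeks old for replicate 1 and 32 weeks old for replicates 2 and 3.

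Epidermal cells were sorted as CD49f+CD34+ and then by SCA-1 and tdT. Cells without SCA-1 (SCA-1neg below) fall in the gate of the hair follicle bulge, a stem cell niche, and gave 3 tdT+ and 3 tdTneg libraries. Cells with SCA-1 (SCA-1+ below) gave 3 tdT+ and 2 tdTneg libraries. The libraries held 17409131 to 46542177 counts. Ly6a, the gene of SCA-1, was at 2.45 to 59.2 normalized CPM (the library's counts scaled to a fixed total, with edgeR's TMM factors) in the SCA-1neg and 153 to 294 CPM in the SCA-1+ libraries, while Cd34 was at 22.3 to 35.6 CPM in the tdT+SCA-1+ libraries and 319 to 1129 CPM in all others. Summed CPM of 3 endothelial markers was 1203 to 1307 in both tdTneg SCA-1+ libraries against 4.57 to 301 elsewhere, and that of 5 leukocyte and T cell markers was 273 to 724 in tdT+SCA-1+, 68.9 to 87.9 in tdTneg SCA-1+, 54.3 to 65.1 in tdT+SCA-1neg and 4.02 to 20.3 in tdTneg SCA-1neg libraries. A row outside the Ensembl genes was at 2.54 to 4.89 CPM in the 5 tdTneg libraries and at 133 to 307 CPM in 5 of the 6 tdT+ libraries. In the library labelled tdT+SCA-1neg replicate 2 it was at 2.05 CPM. The members' values within tdT+ cells, and the tdT effects as a range or for named members, are therefore also given without that library. In bulk RNA of sorted cells, fewer cells of a type and less RNA per cell cannot be told apart, and the part of other cells in the S100 values was not tested unless a value is given.

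On binding calcium, most S100 proteins open a hydrophobic cleft through which their dimers hold partners such as annexins and the myosin heavy chain. S100A8 and S100A9 pair as calprotectin, which neutrophils hold in bulk and stressed keratinocytes also make, and several members act outside the cell through receptors such as RAGE and TLR4. Most of the genes lie in the epidermal differentiation complex, the gene cluster that also holds many genes of cornification.

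The question put to the population comparison was which S100 genes differ between SCA-1+ and SCA-1neg cells. The family split. S100a4 and S100a6 were 4.01-fold and 2.59-fold lower in SCA-1+ than in SCA-1neg cells, S100a3, at a low level, was 2.19-fold lower, and S100a11 and S100a14 were 1.53-fold and 1.63-fold higher. S100a9, also at a low level, was 3.30-fold higher. The remaining 4 members, S100a8, S100a10, S100a13 and S100a16, did not pass the test. Changes are log2 fold changes from edgeR's quasi-likelihood test over all 11 libraries, as the mean over tdT status, and a gene was called at a Benjamini-Hochberg adjusted p under 0.05 over the 20307 genes with an absolute log2 fold change over 1. By that rule 4 of 10 members were called, 1 higher (S100a9) and 3 lower (S100a3, S100a4, S100a6), where 11.6% of all genes tested were called, 4.77% higher and 6.79% lower. By adjusted p alone 3 members were higher and 3 lower, where the shares of all genes were 8.88% and 10.4%. The median log2 fold change was 0.42 over the members and -0.09 over all genes tested. Over the 4 further S100 genes tested, which are not members, it was -1.97.

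Markers of other cell states and types moved with the populations, and their part in the S100 values was not tested. All 6 bulge markers were called lower in SCA-1+ cells by edgeR, from -1.17 for Krt15 to -3.09 for Lgr5, with Cd34, Sox9, Lhx2 and Postn between them, where 11.6% of all genes were called. Their summed level was 11244 to 21826 CPM in SCA-1neg and 4295 to 6975 CPM in SCA-1+ libraries. Of 4 basal keratinocyte markers 3 were called higher, Krt14 at 1.28, Itga6 at 1.02 and Ly6a at 4.12. The most abundant, Krt5, gave 0.26 (edgeR adjusted p = 0.347). Of 4 suprabasal markers, genes of differentiating keratinocytes, 3 were called higher, Krt1 at 2.97, Krt10 at 2.23 and Krtdap at 1.56. The sum of the 4 was 479 to 3998 CPM in SCA-1neg and 2992 to 9822 CPM in SCA-1+ libraries. Of 4 Langerhans cell markers 3 were called higher, Cd207 at 2.73, Cd74 at 2.45 and H2-Ab1 at 2.29, while Epcam gave -0.56 (edgeR adjusted p = 0.03). Their sum was 356 to 579.6 CPM in SCA-1neg and 384 to 765 CPM in SCA-1+ libraries. All 5 leukocyte and T cell markers were called higher, from 2.42 for Ptprc to 4.04 for Cd3e, with Cd3d, Cd3g and Trac between them. Of 4 melanocyte markers 2 were called lower, Dct at -1.99 and Tyrp1 at -1.60. Their sum was 23.6 to 61.5 CPM in SCA-1neg and 5.72 to 33.2 CPM in SCA-1+ libraries. With all 11 libraries, neither the 5 fibroblast markers nor the 3 endothelial markers held a call between the populations. The most abundant were Col1a2 at 0.03 (edgeR adjusted p = 0.983) and Pecam1 at 2.23 (edgeR adjusted p = 0.127). For the endothelial markers this depended on tdT+SCA-1neg replicate 2, where Pecam1 was at 174.6 CPM. Once it was dropped from the fit, Pecam1 gave 4.36 (edgeR adjusted p = 0.000729) and Cdh5 3.14 (edgeR adjusted p = 0.018), and both were called. Egfl7 then gave 1.36 (edgeR adjusted p = 0.0871), and no fibroblast marker was called. The fibroblast sum was 57.2 to 168 CPM in SCA-1neg and 11.4 to 311 CPM in SCA-1+ libraries. Egfl7, an endothelial marker, was called within tdTneg cells at 3.85 (edgeR adjusted p = 0.0327) and for tdT in SCA-1+ cells at -5.34 (edgeR adjusted p = 0.0158). These 2 calls of Egfl7 were lost in 4 and 3 of 9 fits with 1 library left out (edgeR adjusted p up to 0.129 and 0.0799). With 1 library left out in turn, the calls of Tyrp1, Cd207, Itga6, Dct, Krt10 and Ptprc were lost in 10, 8, 5, 3, 1 and 1 of 11 fits. Those of the other 16 markers named here as called between the populations with all libraries were lost in 0.

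**Figure D1:**
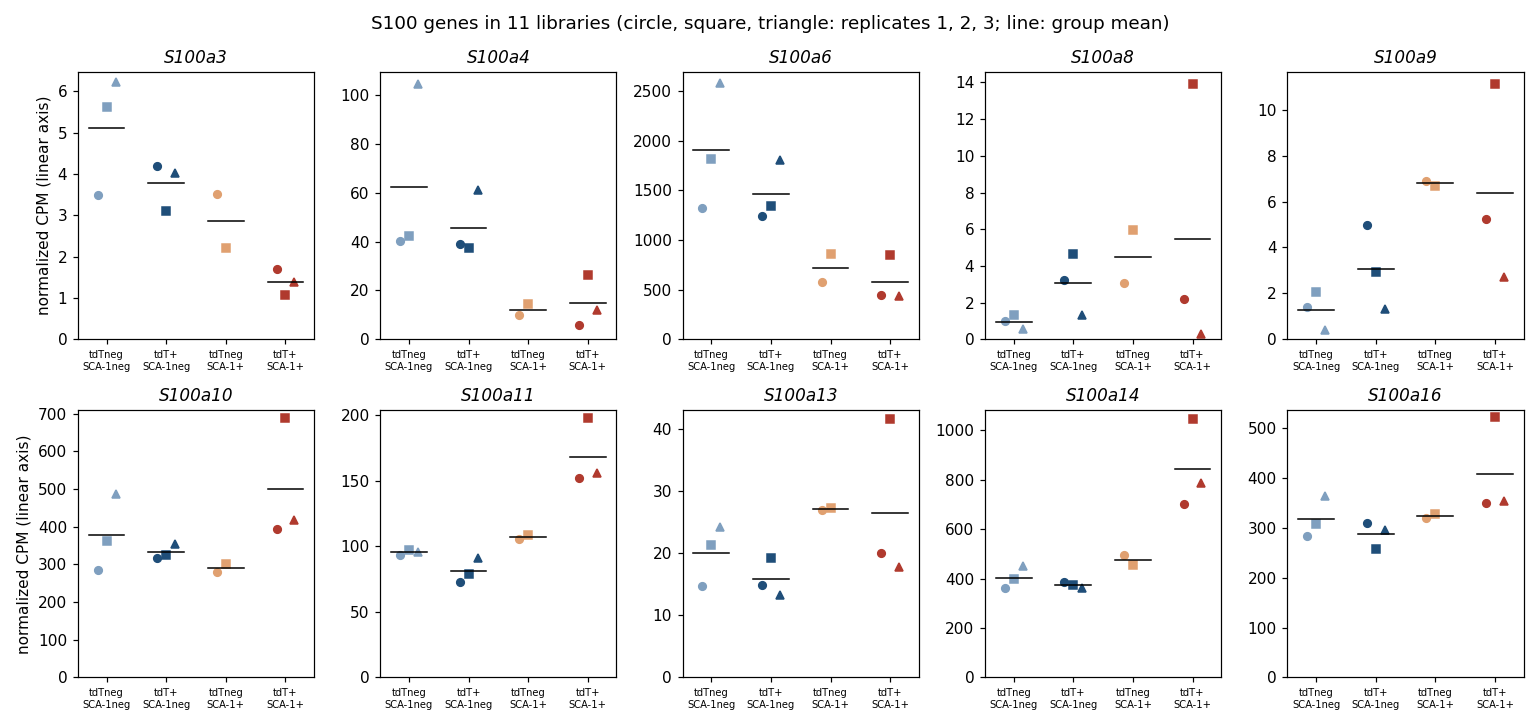
Normalized CPM (vertical axis, linear and starting at 0, with its own range for each gene) of the 10 S100 genes in the 11 libraries, by sorted group (horizontal axis). Circles, squares and triangles are replicates 1, 2 and 3 and the line is the group mean; S100a4 and S100a6 lie lower in all 5 SCA-1+ than in all 6 SCA-1neg libraries, S100a11 and S100a14 lie higher, and tdT+SCA-1+ replicate 2 is the highest of its group for 9 of the 10 genes.

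S100A4 binds non-muscle myosin heavy chain and is known for its part in cell motility. Its normalized level was 38.8, 37.4 and 61.1 CPM in the tdT+SCA-1neg, 40.2, 42.1 and 105 in the tdTneg SCA-1neg, 5.88, 26.4 and 11.9 in the tdT+SCA-1+ and 9.74 and 14.4 in the tdTneg SCA-1+ libraries. The 5 SCA-1+ libraries, at most at 26.4 CPM, all lay below the 6 SCA-1neg libraries, of which tdTneg SCA-1neg replicate 3 was the highest. Between populations it changed by a log2 fold change of -2.01 (SE 0.43, 95% interval -2.95 to -1.06, edgeR adjusted p = 0.00992). It was -2.37 (SE 0.65, adjusted p = 0.0642) within tdTneg and -1.64 (SE 0.54, adjusted p = 0.0763) within tdT+ cells, neither of which passed in this edgeR fit. Both passed in edgeR with either of 2 other filters on low counts and in DESeq2, at -2.28 (DESeq2 adjusted p = 0.000967) within tdTneg and -1.66 (DESeq2 adjusted p = 0.00865) within tdT+, and the value within tdT+ also passed with the replicate number as a block, at -1.73 (edgeR adjusted p = 0.04997). Without tdTneg SCA-1+ replicate 1 the population value was -1.88 and did not pass (edgeR adjusted p = 0.0702). Without tdT+SCA-1+ replicate 2 the value within tdT+ was -2.39 and passed (edgeR adjusted p = 0.0265), and that within tdTneg passed without tdT+SCA-1+ replicate 1 or 2, at -2.37 and -2.32 (edgeR adjusted p = 0.0464 and 0.0406). Neither passed with any other 1 library left out. The value within tdT+ was then -1.26 to -1.77 (edgeR adjusted p of 0.0601 to 0.189), smallest without tdT+SCA-1+ replicate 1, and that within tdTneg was -1.77 to -2.61 (edgeR adjusted p of 0.0604 to 0.187), smallest without tdTneg SCA-1neg replicate 3.

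S100A6, or calcyclin, binds annexins and the calcyclin-binding protein CACYBP, and was the most abundant S100 transcript of SCA-1neg cells. Its level was 1236, 1338 and 1801 CPM in the tdT+SCA-1neg, 1319, 1818 and 2585 in the tdTneg SCA-1neg, 441, 848 and 439.7 in the tdT+SCA-1+ and 572 and 863 in the tdTneg SCA-1+ libraries. The lowest SCA-1neg library, tdT+ replicate 1 at 1236 CPM, lay above the highest SCA-1+ library, tdTneg replicate 2 at 863 CPM. Its log2 fold change was -1.38 (SE 0.26, 95% interval -1.96 to -0.79, edgeR adjusted p = 0.00579), and it passed in all 16 alternatives tried. Within tdT+ cells it was -1.34 (SE 0.34, edgeR adjusted p = 0.0309) and within tdTneg cells -1.41 (SE 0.40, edgeR adjusted p = 0.0682). The call within tdT+ was lost when any 1 of 5 of the 6 tdT+ libraries was left out, with edgeR adjusted p from 0.0514 to 0.106, but not without tdT+SCA-1+ replicate 2, where the log2 fold change was -1.75 (edgeR adjusted p = 0.0146).

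S100A3 is a cysteine-rich member known from the hair cuticle. Its level was 4.21, 3.10 and 4.02 CPM in the tdT+SCA-1neg, 3.49, 5.62 and 6.22 in the tdTneg SCA-1neg, 1.70, 1.08 and 1.39 in the tdT+SCA-1+ and 3.51 and 2.22 in the tdTneg SCA-1+ libraries. The 3 tdT+SCA-1+ libraries were the lowest together with tdTneg SCA-1+ replicate 2, while tdTneg SCA-1+ replicate 1 reached into the range of the SCA-1neg libraries. S100a3 gave a log2 fold change of -1.13 (SE 0.31, edgeR adjusted p = 0.0307) between populations and -1.43 (SE 0.41, edgeR adjusted p = 0.0483) within tdT+ cells. With the replicate number as a block both calls were lost, at -1.12 (edgeR adjusted p = 0.0519) and -1.44 (edgeR adjusted p = 0.0683). Both were also lost when all genes with at least 1 count in any library were kept, at -1.16 (edgeR adjusted p = 0.101) and -1.49 (edgeR adjusted p = 0.138), and the call within tdT+ was lost with only the groups compared in the fit, at -1.47 (edgeR adjusted p = 0.12). The population call was also lost without any 1 of 6 libraries, tdT+SCA-1neg replicate 1, tdTneg SCA-1neg replicate 2 or 3, tdT+SCA-1+ replicate 3, or either tdTneg SCA-1+ library, at log2 fold changes of -0.95 to -1.32 with edgeR adjusted p of 0.0514 to 0.186. The call within tdT+ was lost without any 1 of the 11 libraries, at -1.31 to -1.61 (edgeR adjusted p of 0.0595 to 0.119).

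The genes of these 3 members are neighbours on chromosome 3, on the plus strand within 63.6 kb of GRCm38, with S100a3 at chr3:90560578-90602702, S100a4 at chr3:90603771-90606045 and S100a6 at chr3:90612882-90624181. S100a4 shared 302 of its 584 exon bases (51.7%) with Gm42674, an annotated gene on the same strand that spans S100a3 and S100a4 and is listed at 0 counts in every library, and S100a3 shared 2.54% of its exon bases with it. How reads on shared bases were treated was not given in the sources used here, so the levels of S100a4 may be too low by an amount that was not tested. The 250 bases before the RefSeq start (GRCm38.p6, plus strand) are shown for the 2 more abundant of the 3, with motif matches in capitals.
S100a4, chr3:90603520-90603769, plus strand: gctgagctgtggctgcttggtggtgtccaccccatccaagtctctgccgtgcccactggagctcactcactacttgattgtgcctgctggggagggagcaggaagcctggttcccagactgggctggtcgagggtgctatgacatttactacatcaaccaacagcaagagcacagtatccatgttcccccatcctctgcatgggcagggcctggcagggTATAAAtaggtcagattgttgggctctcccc
S100a6, chr3:90612644-90612893, plus strand: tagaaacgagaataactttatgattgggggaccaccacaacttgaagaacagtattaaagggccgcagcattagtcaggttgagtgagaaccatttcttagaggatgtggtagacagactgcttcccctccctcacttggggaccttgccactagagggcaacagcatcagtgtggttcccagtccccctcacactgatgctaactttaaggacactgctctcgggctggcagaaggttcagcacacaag
The letters of 3 motifs were searched on both strands, the AP-1 site (TGACTCA or TGAGTCA), the TATA box (TATAAA) and the GC box (GGGCGG). Over 300-base windows, from 250 bases before to 50 after the start, these letters stood in 5.2%, 13.6% and 35.7% of 32851 RefSeq promoters, respectively. The S100a4 window held TATAAA from base -31, counted back from the start, and the S100a6 window held none of the 3 motifs. Of the 4 windows of S100a3, 1 held TATAAA from base -52, 1 held a GC box and the others held none. TATAAA also stood in the windows of S100a8, from base -30, and S100a9, from base 0. A GC box stood in the S100a9 window and in a window of S100a16, and the S100a13 window held none of the 3 motifs.

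S100A14 and S100A16 are widely expressed in epithelia, and S100A11 and S100A10 bind annexins, S100A10 in a complex with annexin A2 at the plasma membrane. For S100a14 the level was 386, 375 and 364 CPM in the tdT+SCA-1neg, 364, 398 and 451 in the tdTneg SCA-1neg, 701, 1048 and 786 in the tdT+SCA-1+ and 495 and 455 in the tdTneg SCA-1+ libraries. All 5 SCA-1+ libraries lay above all 6 SCA-1neg libraries, though tdTneg SCA-1+ replicate 2, at 455 CPM, lay close to tdTneg SCA-1neg replicate 3, at 451 CPM. The log2 fold change was 0.70 (SE 0.13, 95% interval 0.42 to 0.98, edgeR adjusted p = 0.00447) as the mean over tdT status. It was 1.17 (SE 0.17, edgeR adjusted p = 0.00251) within tdT+ cells, where it was called, and 0.23 (95% interval -0.19 to 0.65, edgeR adjusted p = 0.53) within tdTneg cells. Without tdT+SCA-1+ replicate 2 the log2 fold change within tdT+ was 0.96 (edgeR adjusted p = 0.0061), under the fold threshold.

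The level of S100a11 was 72.5, 78.8 and 91.3 CPM in the tdT+SCA-1neg, 93.6, 97.3 and 95.8 in the tdTneg SCA-1neg, 152, 198 and 156 in the tdT+SCA-1+ and 105 and 109 in the tdTneg SCA-1+ libraries. The 3 tdT+SCA-1+ libraries stood highest, the 2 tdTneg SCA-1+ libraries next, and the 3 tdTneg SCA-1neg libraries above the 3 tdT+SCA-1neg libraries, with no overlap between any 2 neighbouring groups in that order. The population log2 fold change was 0.61 (SE 0.10, 95% interval 0.39 to 0.84, edgeR adjusted p = 0.00269). Within tdT+ it was 1.06 (SE 0.14, edgeR adjusted p = 0.00137) and called, and within tdTneg cells 0.17 (95% interval -0.17 to 0.50, edgeR adjusted p = 0.577). Leaving out tdT+SCA-1neg replicate 1 gave 0.98 (edgeR adjusted p = 0.00632) and leaving out tdT+SCA-1+ replicate 2 gave 0.90 (edgeR adjusted p = 0.00433) within tdT+, both under the fold threshold only. It also fell just under the fold threshold with either of 2 other filters on low counts, with edgeR adjusted p of 0.000784 and 0.000847. S100a11 (chr3:93520488-93526287, plus strand) has a processed copy, S100a11-ps, which was at 0 to 0.0619 CPM. Its RefSeq promoter is shown because it held 2 AP-1 sites (TGAGTCA, from bases -136 and -38) and 3 GC boxes, which are in capitals.
S100a11, chr3:93520246-93520495, plus strand: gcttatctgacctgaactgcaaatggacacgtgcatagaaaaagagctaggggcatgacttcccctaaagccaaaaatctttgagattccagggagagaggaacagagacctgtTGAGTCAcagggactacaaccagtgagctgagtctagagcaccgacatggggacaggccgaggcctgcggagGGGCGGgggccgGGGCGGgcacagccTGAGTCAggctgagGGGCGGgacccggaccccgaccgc
No promoter window was at hand for S100a14 or S100a10, so the window of S100a11 could not be set beside theirs.

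S100a10 and S100a16 gave no call. The level of S100a10 was 318, 325 and 354 CPM in the tdT+SCA-1neg, 285, 361 and 487 in the tdTneg SCA-1neg, 393, 689 and 417 in the tdT+SCA-1+ and 280.1 and 301 in the tdTneg SCA-1+ libraries. The SCA-1+ libraries spanned the SCA-1neg range at both ends, and tdT+SCA-1+ replicate 2 was far the highest. The log2 fold change was 0.10 (95% interval -0.31 to 0.51, edgeR adjusted p = 0.736), which turned to -0.03 without that library, and it was 0.59 (edgeR adjusted p = 0.14) within tdT+ and -0.38 (edgeR adjusted p = 0.476) within tdTneg cells. S100a16 ranged from 257 to 363 CPM in the SCA-1neg and from 319 to 522 CPM in the SCA-1+ libraries. Its log2 fold change was 0.26 (95% interval -0.04 to 0.57, edgeR adjusted p = 0.205), so a change above about 0.57 lay outside the interval.

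S100A13 takes part in the export of FGF1 and interleukin 1 alpha, which lack signal peptides. Its level was 14.97, 19.3 and 13.3 CPM in the tdT+SCA-1neg, 14.7, 21.3 and 24.2 in the tdTneg SCA-1neg, 20.1, 41.6 and 17.8 in the tdT+SCA-1+ and 26.9 and 27.3 in the tdTneg SCA-1+ libraries. The tdT+SCA-1+ group spanned 17.8 to 41.6 CPM, so it covered most of the range of the other groups. The log2 fold change was 0.59 (SE 0.25, 95% interval 0.04 to 1.13, edgeR adjusted p = 0.124). S100a13 (chr3:90514435-90524581, plus strand) starts 43 bases from the start of S100a1, a gene on the minus strand at chr3:90511034-90514392 that is not among the 10 and encodes a calcium sensor of muscle. S100a1 was 41.5, 33.9 and 35.02 CPM in the tdT+SCA-1neg, 44.4, 68.6 and 73.6 in the tdTneg SCA-1neg, 7.75, 21.1 and 10.7 in the tdT+SCA-1+ and 14.4 and 23.6 in the tdTneg SCA-1+ libraries, lower in every SCA-1+ than in every SCA-1neg library, with a log2 fold change of -1.60 (SE 0.28, edgeR adjusted p = 0.00375), so the point estimates of this divergent pair had opposite signs. The bases between the 2 annotated starts are shown and held none of the 3 motifs.
S100a1 to S100a13, chr3:90514393-90514434, plus strand: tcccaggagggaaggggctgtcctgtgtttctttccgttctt

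**Figure D2:**
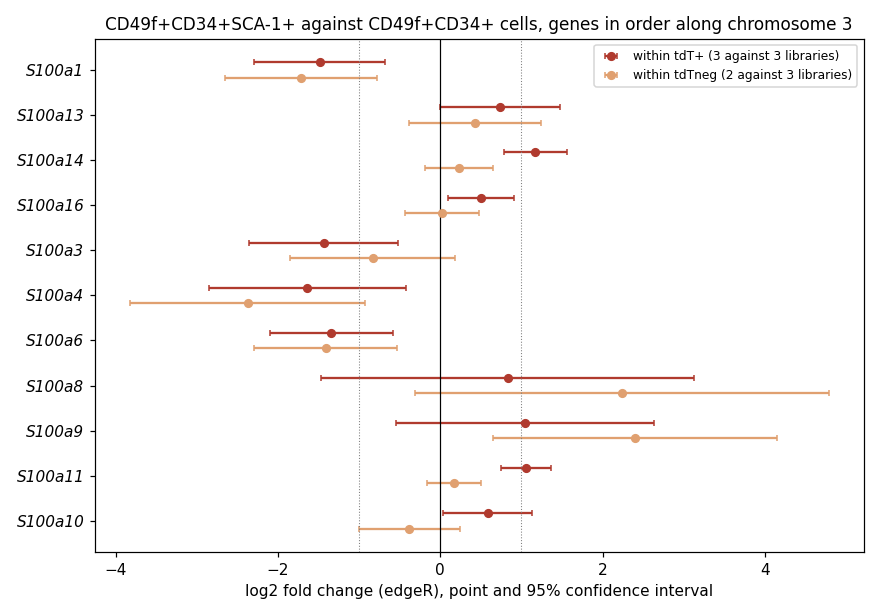
Log2 fold change of SCA-1+ against SCA-1neg cells (horizontal axis; edgeR estimate and 95% confidence interval) for the 10 members and S100a1, in their order along chromosome 3 (vertical axis), within tdT+ cells (red, 3 against 3 libraries) and within tdTneg cells (orange, 2 against 3). Dotted lines mark the fold threshold of 1; S100a3, S100a4 and S100a6 lie left of 0 in both, and S100a11 and S100a14 lie past 1 within tdT+ and near 0 within tdTneg cells.

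Within tdT+ cells 4 of 10 members were called, 2 higher (S100a11, S100a14) and 2 lower (S100a3, S100a6), where 8.45% of all genes were called, 2.91% higher and 5.54% lower. By adjusted p alone the same 2 and 2 passed, where 5.66% of all genes were higher and 6.64% lower. DESeq2 called 5 members there, S100a4 with the other 4, and 3407 genes against 1715 of edgeR. Within tdTneg cells 0 of 10 members were called by edgeR, where 4.74% of all genes were. There 3 members had an unadjusted p under 0.05, as did 4286 genes in all (21.1%), and DESeq2 called 3 members (S100a4, S100a6, S100a9) and 2170 genes. With 2 other filters on low counts, at least 1 count in any library and at least 10 counts in every library, edgeR called 2 members each, S100a4 and S100a6, and 1410 and 1167 genes in all, against 963 with the filter used here. These comparisons share libraries with the population mean and add no separate evidence. Leaving out only the library labelled tdT+SCA-1neg replicate 2, the values within tdT+ were 1.04 for S100a11 and 1.17 for S100a14 (edgeR adjusted p = 0.00592 and 0.00978), both called. They were -1.40 for S100a6, -1.56 for S100a3, -1.77 for S100a4 and 0.57 for S100a10 (edgeR adjusted p = 0.0537, 0.0661, 0.103 and 0.238), none of which passed. S100a8, S100a9, S100a13 and S100a16 gave 1.26, 1.01, 0.90 and 0.43 (edgeR adjusted p = 0.547, 0.48, 0.162 and 0.218) and did not pass either. Without the 3 libraries that stood apart, both tdTneg SCA-1+ and the library labelled tdT+SCA-1neg replicate 2, the comparison within tdT+ called S100a11 at 1.05 (edgeR adjusted p = 0.0127) and S100a14 at 1.19 (edgeR adjusted p = 0.0194), while S100a6 at -1.39 (edgeR adjusted p = 0.0756) and S100a3 at -1.54 (edgeR adjusted p = 0.0902) did not pass.

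For single genes the populations were also compared by a two-sided exact permutation test on log2 CPM with a prior count of 2, over all ways to place 5 SCA-1+ labels on 11 libraries, which treats the libraries as exchangeable across pools of mice. The smallest p such a test can give is 0.00216. S100a4, S100a6, S100a11 and S100a14 reached it, since their libraries did not overlap between populations. No overlap, with SCA-1+ higher, was seen for 2 members and 5.11% of all genes, and with SCA-1+ lower for 2 members and 5.66% of all genes. The exact permutation p was 0.00649 for S100a3, 0.0152 for S100a9, 0.0368 for S100a16, 0.0541 for S100a13, 0.368 for S100a8 and 0.515 for S100a10, unadjusted for the 10 tests. With labels exchanged only within a replicate number, 108 arrangements remained and the smallest exact p was 0.00926, which S100a4, S100a6, S100a9, S100a11 and S100a14 reached. There S100a3 gave an exact p of 0.0185, S100a13 one of 0.0463, S100a16 one of 0.0556, S100a8 one of 0.269 and S100a10 one of 0.574.

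S100A8 and S100A9 form calprotectin. S100a8 was 3.21, 4.65 and 1.32 CPM in the tdT+SCA-1neg, 0.971, 1.35 and 0.536 in the tdTneg SCA-1neg, 2.18, 13.9 and 0.309 in the tdT+SCA-1+ and 3.07 and 5.94 in the tdTneg SCA-1+ libraries, and tdT+SCA-1+ held both its highest and its lowest library. S100a9 was 4.97, 2.94 and 1.32 CPM in the tdT+SCA-1neg, 1.40, 2.06 and 0.390 in the tdTneg SCA-1neg, 5.25, 11.1 and 2.73 in the tdT+SCA-1+ and 6.89 and 6.70 in the tdTneg SCA-1+ libraries, and the SCA-1+ libraries lay above the SCA-1neg libraries except for tdT+SCA-1+ replicate 3, which lay below 2 of them. Counts were low, from 6 to 245 reads for S100a8 and from 16 to 218 for S100a9. The log2 fold change was 1.53 (95% interval -0.18 to 3.25, edgeR adjusted p = 0.19) for S100a8 and 1.72 (SE 0.53, 95% interval 0.54 to 2.91, edgeR adjusted p = 0.0474) for S100a9. For S100a9 it was 1.04 (edgeR adjusted p = 0.355) within tdT+ and 2.4 (edgeR adjusted p = 0.112) within tdTneg cells, neither called by edgeR. The tdT+ value of S100a9 fell to 0.35 without tdT+SCA-1+ replicate 2. The S100a8 value was 0.49 without tdT+SCA-1+ replicate 2 and 0.76 with the replicate block, and did not pass in either.

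The S100a9 call was lost without any 1 of 8 libraries, tdT+SCA-1neg replicates 2 or 3, tdTneg SCA-1neg replicates 1 or 3, tdT+SCA-1+ replicates 1 or 2, or either tdTneg SCA-1+ library, at 1.41 to 1.78 (edgeR adjusted p of 0.0705 to 0.149). Summed CPM of 10 neutrophil and myeloid markers was 0.902 to 26.03 in tdTneg SCA-1neg, 2.97 to 185 in tdT+SCA-1neg, 26.8 to 90.7 in tdT+SCA-1+ and 43.3 to 374 in tdTneg SCA-1+ libraries. Lyz2, the lysozyme gene of myeloid cells, ranged from 0.366 to 352 CPM. Of the 6 list genes tested 1 was called between the populations, where 11.6% of all genes were: Itgam, the gene of CD11b, at a log2 fold change of 2.84 (edgeR adjusted p = 0.0322). The Itgam call was lost in 6 of 11 fits with 1 library left out, at its lowest 1.57 (edgeR adjusted p = 0.262) without tdTneg SCA-1+ replicate 2. It was 3.62 (edgeR adjusted p = 0.0124) when tdT+SCA-1neg replicate 2 was left out. The others gave 2.19 for Lyz2 (edgeR adjusted p = 0.209), 1.93 for Cxcr2 (edgeR adjusted p = 0.206), 0.54 for Csf3r (edgeR adjusted p = 0.777), -2.15 for Camp (edgeR adjusted p = 0.38) and -5.76 for Ngp (edgeR adjusted p = 0.0555). The neutrophil genes Ly6g, Elane and Mpo were at 0 in all 5 SCA-1+ libraries. In the SCA-1neg libraries they were at 0 to 3.26, 0 to 0.132 and 0 to 8.23 CPM, with Ly6g and Mpo highest in tdT+SCA-1neg replicate 1. Ltf, of the same list, was at 0 to 0.0799 CPM in SCA-1+ and 0 to 1.61 CPM in SCA-1neg libraries. Cxcr2, the gene of a chemokine receptor of neutrophils, was at 0.619 to 2.84 CPM in the SCA-1+ and 0 to 1.13 CPM in the SCA-1neg libraries. Cxcr2, like S100a8 and S100a9, was highest in tdT+SCA-1+ replicate 2, whereas Lyz2 was highest in tdTneg SCA-1+ replicate 2, at 352 against 84.0 CPM. The part of myeloid cells in the S100a8 and S100a9 values was not tested further.

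**Figure D3:**
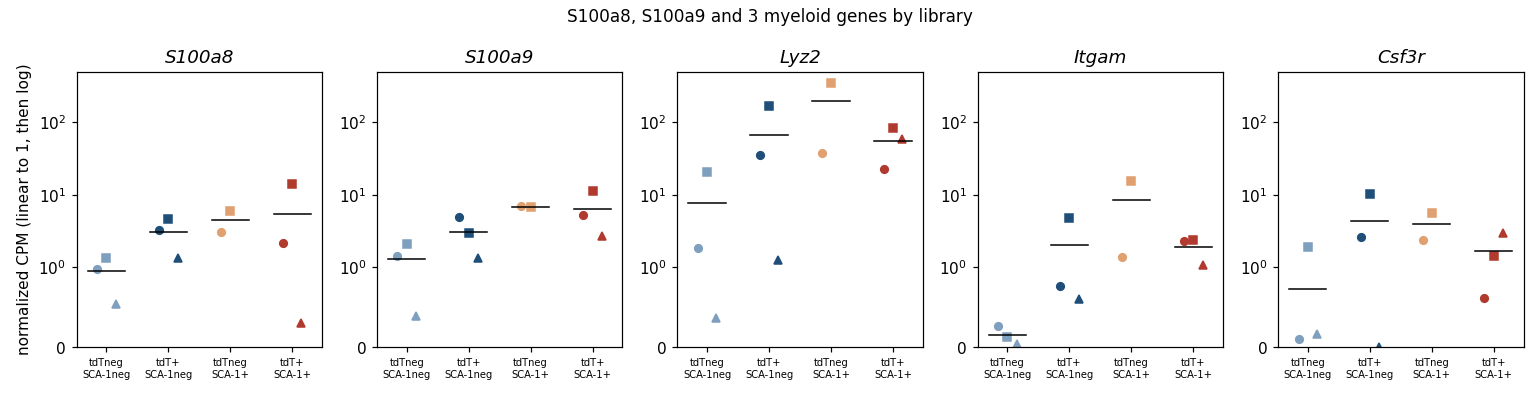
Normalized CPM (vertical axis, linear from 0 to 1 and logarithmic above) of S100a8, S100a9 and the myeloid genes Lyz2, Itgam and Csf3r by sorted group (horizontal axis). Circles, squares and triangles are replicates 1, 2 and 3 and the line is the group mean; S100a8 and S100a9 are highest in tdT+SCA-1+ replicate 2, at 13.9 and 11.1 CPM, while Lyz2 and Itgam are highest in tdTneg SCA-1+ replicate 2, at 352 and 15.5 CPM.

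The comparison of tdT+ with tdTneg cells asked whether S100 genes differ between cells with and without a history of Cre activity. In SCA-1neg cells 0 of 10 members were called by edgeR and 0 by DESeq2, where edgeR called 0.00985% of all genes. None had an unadjusted p under 0.05, against 1709 genes in all (8.42%). Point estimates ran from -0.44 for S100a4 (95% interval -1.62 to 0.73) to 1.68 for S100a8 (95% interval -0.67 to 4.04), and the narrowest intervals were those of S100a11, -0.54 to 0.06, and S100a14, -0.49 to 0.27. Without the library labelled tdT+SCA-1neg replicate 2, 0 members were called as well, with point estimates from -0.51 for S100a13 to 1.29 for S100a9 and -0.22 for S100a11.

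In SCA-1+ cells 0 of 10 members were called by edgeR and 0 by DESeq2, where edgeR called 2.31% of all genes. An unadjusted p under 0.05 was seen for 4 members, against 2963 genes in all (14.6%). S100a14 averaged 845 ± 180.4 CPM (SD, n = 3) in tdT+ and 475 ± 28.5 CPM (SD, n = 2) in tdTneg cells, a log2 difference of 0.83 (95% interval 0.40 to 1.27, edgeR adjusted p = 0.0576). S100a11 averaged 168 ± 25.4 CPM (SD, n = 3) and 107 ± 2.5 CPM (SD, n = 2), a log2 difference of 0.65 (95% interval 0.31 to 0.99, edgeR adjusted p = 0.058). S100a10 averaged 499.8 ± 164 CPM (SD, n = 3) and 290.4 ± 14.6 CPM (SD, n = 2), a log2 difference of 0.78 (95% interval 0.16 to 1.41, edgeR adjusted p = 0.217). Every tdT+SCA-1+ library lay above both tdTneg SCA-1+ libraries for 4 members, these 3 and S100a16, where the same held for 15.8% of all genes. S100a3, the fourth member with an unadjusted p under 0.05, was lower in tdT+ cells, by -1.04 (95% interval -2.03 to -0.04, edgeR adjusted p = 0.318). DESeq2 gave S100a14 an adjusted p of 0.00337 and S100a11 one of 0.0138, under the fold threshold. The tdTneg SCA-1+ libraries are also those with the most endothelial marker RNA, and the tdT+SCA-1+ libraries those with the most T cell marker RNA and least Cd34, so tdT status cannot be told apart from these differences.

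**Figure D4:**
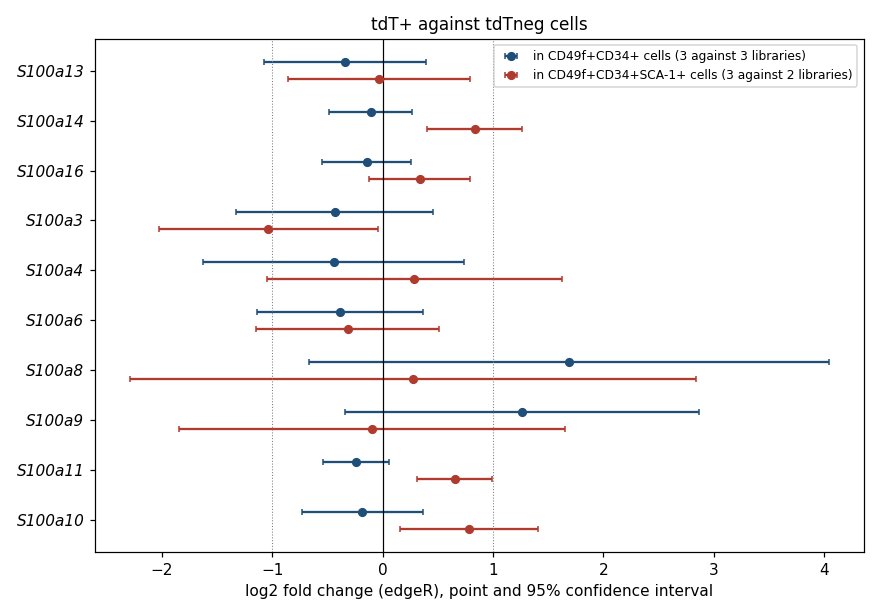
Log2 fold change of tdT+ against tdTneg cells (horizontal axis; edgeR estimate and 95% confidence interval) of the 10 members (vertical axis), in SCA-1neg cells (blue, 3 against 3 libraries) and SCA-1+ cells (red, 3 against 2). Dotted lines mark the fold threshold of 1; in SCA-1+ cells the intervals of S100a10, S100a11 and S100a14 lie above 0 and that of S100a3 below it, and in SCA-1neg cells every interval includes 0.

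The tdT effect in SCA-1+ cells minus that in SCA-1neg cells was called for 0 of 10 members by edgeR and 0 by DESeq2, where edgeR called 0.389% of all genes. An unadjusted p under 0.05 was seen for 3 members, against 2517 genes in all (12.4%). The difference of the 2 effects was 0.89 for S100a11 (SE 0.20, edgeR adjusted p = 0.102), 0.94 for S100a14 (SE 0.26, edgeR adjusted p = 0.169) and 0.97 for S100a10 (SE 0.37, edgeR adjusted p = 0.324). Leaving out tdT+SCA-1neg replicate 2, the library with the row outside the Ensembl genes at 2.05 CPM, gave 0.87 for S100a11 (edgeR adjusted p = 0.203), 0.94 for S100a14 (edgeR adjusted p = 0.291) and 0.95 for S100a10 (edgeR adjusted p = 0.46). No member passed this test of an unequal tdT effect.

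Levels of different genes were set beside each other as mean CPM per kb of exon union. In tdTneg SCA-1neg cells the order was S100a6 at 1395, S100a10 at 312, S100a14 at 234, S100a16 at 197, S100a11 at 187, S100a4 at 107, S100a13 at 28.1, S100a9 at 2.46, S100a8 at 1.37 and S100a3 at 0.902 CPM per kb. There the ranges over libraries of S100a10, S100a14, S100a16 and S100a11 overlapped from each gene to the next, as did those of S100a9, S100a8 and S100a3, while S100a6 stood clear of S100a10. In tdT+SCA-1neg cells S100a6 was first at 1067 CPM per kb, the order was the same, and the neighbours with overlapping ranges were S100a16 with S100a11 and S100a9 with S100a8. In tdT+SCA-1+ cells S100a14 came first at 489, before S100a6 at 422, S100a10 at 412, S100a11 at 329.5 and S100a16 at 252 CPM per kb, and S100a4, at 25.2, stood behind S100a13 at 37.1 CPM per kb. The ranges of the first 5 overlapped from each gene to the next, so their order was not resolved, and so did those of S100a13, S100a4, S100a9 and S100a8. In tdTneg SCA-1+ cells S100a6 led at 525 CPM per kb, before S100a14 at 275 and S100a10 at 239.6, and no neighbours overlapped over its 2 libraries. With the length of the longest coding transcript S100a6, S100a10 and S100a14 kept the first 3 places in all 4 groups, and S100a14 again led in tdT+SCA-1+ cells, at 798 CPM per kb against 788 CPM per kb of S100a6. S100a3 has a long exon union for its coding transcript (5660 against 712 bases), so its place at the bottom depends on the length in tdTneg SCA-1neg cells, where it moved from the 10th to the 8th place.

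How the members varied together across the 11 libraries is given as Pearson's r of log2 CPM, for description only, since the libraries share sort, depth and composition. S100a4 and S100a6 gave r = 0.96, and 0.88 for their deviations from the group means. S100a11 and S100a14 gave 0.96, and 0.59 for the deviations. S100a6 and S100a10 gave 0.01 over all libraries and 0.93 for the deviations, so these genes varied together between replicates of a group, although of the 2 only S100a6 was called between the populations. Among S100a4, S100a6, S100a10, S100a14 and S100a16 every pair gave 0.70 to 0.93 for the deviations, so replicates of a group differed in these genes jointly, across the split between the populations. S100a8 and S100a9 gave 0.76 and 0.77. Among 10185 genes with a mean of at least 10 CPM, the gene whose log2 CPM went most closely with S100a6 was Crip1 (r = 0.985), with S100a11 Wnt4 (r = 0.984), with S100a14 Wdr61 (r = 0.981), with S100a10 Rtraf (r = 0.977), with S100a4 1500011B03Rik (r = 0.976), with S100a16 Cct6a (r = 0.973), with S100a13 Rars (r = 0.939), with S100a3 Mn1 (r = 0.937), with S100a9 Ctsc (r = 0.931) and with S100a8 Ap2m1 (r = 0.891). Wnt4 averaged 176 CPM in SCA-1+ and 83.5 CPM in SCA-1neg cells, and Crip1 71.0 and 199 CPM.

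Of 9 binding partners of S100 proteins, 0 were called between the populations by edgeR with the fold threshold. By adjusted p alone, where 8.88% of all genes were higher and 10.4% lower, 4 were higher in SCA-1+ cells, the annexin genes Anxa1 at a log2 fold change of 0.63 (edgeR adjusted p = 0.0278) and Anxa11 at 0.68 (edgeR adjusted p = 0.00746), Ahnak, whose giant scaffold protein binds the S100A10 and annexin A2 complex, at 0.69 (edgeR adjusted p = 0.0328), and the myosin heavy chain gene Myh9 at 0.79 (edgeR adjusted p = 0.0127). Anxa6 was lower at -0.99 (edgeR adjusted p = 0.00266), and was called within tdTneg cells at -1.25 (edgeR adjusted p = 0.0199). Anxa2, the partner of S100A10, was at 1254 to 1782 CPM in SCA-1neg and 1830 to 3390 CPM in SCA-1+ libraries, at 0.49 (edgeR adjusted p = 0.0515), and passed by adjusted p within tdT+ cells at 0.83 (edgeR adjusted p = 0.0299), as did Anxa11 at 0.79 (edgeR adjusted p = 0.021). Leaving out the library labelled tdT+SCA-1neg replicate 2 gave 0.91 for Anxa2 (edgeR adjusted p = 0.0507) and 0.92 for Anxa11 (edgeR adjusted p = 0.0203). With 1 library left out in turn, the population values of Ahnak, Anxa1 and Myh9 no longer passed in 8, 5 and 1 of 11 fits, the tdT+ values of Anxa2 and Anxa11 in 6 and 4 of 11, and the tdTneg call of Anxa6 was lost in 2 of 9.

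Of 6 receptors for S100 proteins, 1 was called between the populations, where 11.6% of all genes were. Alcam, which encodes a cell adhesion molecule of the immunoglobulin family, was lower in SCA-1+ cells by a log2 fold change of -1.74 (edgeR adjusted p = 0.000388), and was also called within tdT+ at -2.27 (edgeR adjusted p = 0.000674; -2.42 and 0.00119 when tdT+SCA-1neg replicate 2 was left out) and within tdTneg cells at -1.21 (edgeR adjusted p = 0.0359). Bsg, the most abundant of the list over all 11 libraries, gave 0.13 (edgeR adjusted p = 0.538). In SCA-1neg cells alone Alcam was the more abundant, at a mean of 291 CPM against 258 CPM of Bsg. Ager, which encodes RAGE, gave -1.19 (edgeR adjusted p = 0.0746). Tlr4 gave 1.18 (edgeR adjusted p = 0.126) as the mean of unlike values, 3.38 (edgeR adjusted p = 0.0329, called) within tdTneg and -1.01 (edgeR adjusted p = 0.346) within tdT+ cells. The last value rested on the library labelled tdT+SCA-1neg replicate 2, at 11.9 CPM, without which it was 0.15 (edgeR adjusted p = 0.889) and the population value 1.76 (edgeR adjusted p = 0.017, called). The tdTneg call of Tlr4 was lost in 3 of 9 fits with 1 library left out. Its levels were 18.6 and 26.2 CPM in the 2 tdTneg SCA-1+ libraries, those with the most endothelial marker RNA, and 1.07 to 11.9 CPM in all others. In SCA-1+ cells Mcam and Alcam were lower in tdT+ than in tdTneg libraries, at -3.29 (edgeR adjusted p = 0.00601) and -1.30 (edgeR adjusted p = 0.034). The tdTneg call and the tdT call of Alcam were lost in 3 and 4 of 9 fits with 1 library left out. Mcam, also a gene of endothelial cells, was highest in the 2 tdTneg SCA-1+ libraries with the most endothelial marker RNA, at 59.9 and 87.9 CPM against 3.82 to 30.5 elsewhere.

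Of 7 fused-type S100 genes, which join an S100 domain to long repeats and serve cornification and the hair sheath, 1 was called between the populations, Tchh, the gene of trichohyalin, at 2.30 (edgeR adjusted p = 0.0255), where 11.6% of all genes were called. Tchh was at 229 and 207 CPM in tdTneg SCA-1+ and 110.03 CPM in tdT+SCA-1+ replicate 1, but at 9.87 and 12.8 CPM in tdT+SCA-1+ replicates 2 and 3, against 10.9 to 29.8 CPM in the SCA-1neg libraries. Its call was lost in 4 of 11 fits with 1 library left out, where the log2 fold change was at its lowest 1.32. Of 9 further S100 genes listed, 7 were matched and 4 passed the filter, and S100a1 alone of the 4 was called. S100a5, S100a7a and S100b gave log2 fold changes of -3.62, -1.99 and -1.955 between the populations (edgeR adjusted p = 0.112, 0.101 and 0.21). S100b was at 0 to 0.923 CPM. S100a5 and S100a7a, which lie among the members on chromosome 3, were at 0 to 0.606 and 0 to 7.87 CPM.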

How the data were processed

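The authors sorted epidermal cells, made TruSeq v2 libraries and, per the study's methods and the submitters' processing notes, aligned reads with STAR to mm10 and counted them per Ensembl 96 gene with featureCounts. The deposited files hold these raw counts, one file per library; strand and overlap settings are not given in the sources used here. Counts were fitted in R 4.3.3 with edgeR 4.0.16 (TMM, filterByExpr, quasi-likelihood test, 1 mean per group, 11 libraries), where the study's methods name DESeq2; DESeq2 1.42.0 was an alternative. The thresholds are those of the methods. On simulated data with 200 genes changed by a log2 fold change of 2, edgeR called 178 between populations, 110 between tdT groups of SCA-1neg cells and 66 in SCA-1+ cells (21350 genes). The simulated spread between libraries was the same for all genes and smaller than in these data, where edgeR's common coefficient of variation was 0.61. These counts may therefore overstate what the test recovers here. CPM are TMM-normalized; the log2 CPM of the permutation tests used a prior count of 2. Levels per kb used the exon union of GENCODE M21, which is Ensembl 96. Python 3.11.15 with pandas 2.3.3 and scipy 1.17.1 did the rest.

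The 10 members and the gene lists were chosen with earlier results of these data known. Named genes are the members, the listed genes that were called in a comparison or most abundant in their list, the S100 partners that passed by adjusted p, and per member the gene with the highest correlation. Ager, Csf3r, Cxcr2, Camp, Ngp, Ly6g, Elane, Mpo, Ltf, Cdh5, S100a5, S100a7a and S100b, which did not pass with all libraries, were named after their values were seen. The list-adjusted permutation p that had been planned is not given. Samples of 1 replicate number were read as 1 pool of mice, since the methods state 3 replicates in total: over 15 same-number pairs the correlation of deviations from group means had a median of 0.08 (-0.42 to 0.59), against -0.02 over 30 other pairs. Replicates of a group are separate pools, of different age for replicate 1. Sequences are from RefSeq (GRCm38.p6), with windows for 8 of 10 members; reads were not analysed here.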

Additional observations from a re-analysis of the deposited data

Results flagged for a closer look

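The point estimates of the tdT effect on S100a11 had opposite signs in the 2 populations, -0.24 in SCA-1neg (edgeR adjusted p = 0.675) and 0.65 in SCA-1+ cells (edgeR adjusted p = 0.058), and neither passed the test. Every tdT+SCA-1neg library (72.5 to 91.3 CPM) lay below every tdTneg SCA-1neg library (93.6 to 97.3 CPM), and every tdT+SCA-1+ library (152 to 198 CPM) lay above both tdTneg SCA-1+ libraries (105 and 109 CPM). The difference between the 2 effects was 0.89 on the log2 scale (SE 0.20), with an edgeR adjusted p of 0.102, so it did not pass the test. Without the library labelled tdT+SCA-1neg replicate 2, at 78.8 CPM, it was 0.87 with an edgeR adjusted p of 0.203. The 10 members were screened for such opposite directions without overlap, which 1 of them and 412 of all 20307 genes tested (2.03%) showed.

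The row outside the Ensembl genes, which entered no comparison, was at 133 CPM or more in 5 of the 6 tdT+ libraries, against at most 4.89 CPM in the 5 tdTneg libraries, and at 2.05 CPM in the library labelled tdT+SCA-1neg replicate 2.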

How the results depend on the processing

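The alternatives were DESeq2, scaling by RLE, 2 further low-count filters, the replicate block, only the groups compared, adjusted p alone and the omission of each library; the omission of the 3 libraries that stood apart together, the other gene length and the permutation test within replicate numbers were added after seeing the data. With the replicate block, 3 members were called between the populations (S100a3 lost) and 4 within tdT+ (S100a3 lost, S100a4 gained), of 2262 and 1704 genes in all, and the tdT effect on S100a9 in SCA-1+ cells turned from -0.10 to 0.29; no other member's call changed. In the exact test within replicate numbers, S100a13 passed 0.05 (p = 0.0463) and S100a16 no longer did (p = 0.0556). Within tdTneg cells, where edgeR called 0 members, DESeq2 called 3 and the filters of 1 count in any library and of 10 counts in every library 2 each, of 1410 and 1167 genes in all. With the first filter S100a3 was lost between the populations and within tdT+, where S100a11 was lost and S100a4 gained with both filters, and with only the groups compared S100a3 was lost within tdT+; DESeq2 gained S100a4 there. Without the 3 libraries that stood apart, 2 members and 1410 genes were called within tdT+. With 1 library left out, the members called were 1 to 3 between the populations and 1 to 3 within tdT+ (4 each with all libraries) and 0 to 2 within tdTneg; in the same fits 1160 to 2510, 1174 to 2233 and 216 to 1300 genes were called in all, against 2347, 1715 and 963 with all libraries. Between the populations 1 was called without tdTneg SCA-1+ replicate 1 and 2 without tdTneg SCA-1+ replicate 2 or tdTneg SCA-1neg replicate 3, within tdT+ 1 without tdT+SCA-1neg replicate 1 and 2 without any other tdT+ library, and within tdTneg 1 without tdT+SCA-1+ replicate 1 and 2 without tdT+SCA-1+ replicate 2. Directions that turned with 1 library left out, all in uncalled values and with the range over those fits, were the tdT effects in SCA-1neg cells on S100a4 (-0.71 to 0.15) and S100a10 (-0.35 to 0.04), those in SCA-1+ cells on S100a4 (-0.49 to 0.67), S100a8 (-1.89 to 0.83), S100a9 (-0.82 to 0.27) and S100a13 (-0.58 to 0.18), and the population effects on S100a10 (-0.03 to 0.22), on S100a8 within tdT+ (-1.31 to 1.39) and on S100a16 within tdTneg (-0.06 to 0.12). The causes were not tested.

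Over all genes, DESeq2 called 373 against 2 genes of edgeR for tdT in SCA-1neg and 1224 against 470 in SCA-1+ cells, 3542 against 2347 between the populations, 3407 against 1715 within tdT+, 2170 against 963 within tdTneg and 844 against 79 for the unequal tdT effect. S100a3, S100a8 and S100a9 rest on few reads, and groups of 2 or 3 libraries limit the comparisons by tdT. Omitting a tdTneg SCA-1+ library leaves 1, so comparisons that use that group alone were not run in those fits.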
